A study of Mus musculus with 10 samples.

Results

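The genes for the cytosolic ribosomal proteins and the pseudogenes copied from them were examined in the transcriptome of brain endothelial cells (BECs). Members were the rows whose GENCODE M21 symbol begins with Rpl or Rps and a digit, or with Rplp or Rpsa, without the Rps6k kinases. This gave 115 of 14106 rows, of which 80 were protein-coding and 35 were pseudogenes. Rps19bp1 meets the symbol rule but encodes a binding protein of Rps19 and not a ribosomal protein, so 79 coding rows were counted. They comprised 40 proteins of the 60S subunit, 30 of the 40S subunit, the 3 P stalk proteins and 6 paralogs. Coding Rpl29, Rpl23a, Rpl24, Rps23, Rpl10l and Rpl3l were not analysed here.

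RNA was sequenced from CD31+CD45− BECs that had been enriched with microbeads from the cortex of female mice aged 1 year. The 5 APP/PS1 libraries came from APP/PS1Swe/PSEN1DE9 mice, a transgenic model of Alzheimer's disease with mutant amyloid precursor protein and presenilin 1 that deposits amyloid-beta in the brain, and the 5 control libraries from age-matched mice with the label WT. Both groups were on a C3H/BL6 background, and neither carried a treatment by the labels. The number of mice behind a library is not given in the sources used here, so p values measure the spread between these libraries, which may be technical. The values were log2 CPM (CPM being a count relative to the size of its library) after the authors' correction for batch, and each APP/PS1 library was set against the control library with its replicate number.

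A ribosome is built from a small 40S subunit, which decodes the mRNA, and a large 60S subunit, which joins the amino acids, and each ribosomal protein is needed in a single copy per ribosome except for the stalk proteins that recruit the elongation factors. Because every ribosome needs the full set, the messages of these genes are made and translated together. Most begin with an unbroken run of pyrimidines, the terminal oligopyrimidine or TOP motif, through which the mTORC1 kinase controls their translation. The messages are short, abundant and often reverse transcribed, and the mouse genome therefore holds many intronless copies of them.

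The pyrimidine run was looked for at the annotated start sites. A run was at least 6 letters of C or T on the strand of the gene whose first letter was a C between 10 bases before and 15 bases after the start. Of the 73 coding members other than the paralogs, 55 genes had a start sequence in the RefSeq promoter table (GRCm38.p6), and 32 of them (58.2%) held a run, while 23 did not. A gene with several annotated starts was scored on its longest run. The share was 26.8% of 9770 genes with a row and 24.9% of all 27025 genes with a promoter. The starts of 6 genes with a run are shown as examples, from 10 bases before the start to 20 bases into the transcript, with the longest run in capitals. The last 2 starts, of Rpl27 and Rpl4, to which the results return, are among those without a run.
Rplp2 (chr7:141447641-141447670, plus strand): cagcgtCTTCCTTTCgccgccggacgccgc
Rpl27a (chr7:109519185-109519214, plus strand): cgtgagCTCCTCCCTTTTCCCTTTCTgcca
Rpl35 (chr2:39005112-39005141, minus strand): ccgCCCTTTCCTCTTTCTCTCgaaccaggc
Rpl14 (chr9:120571507-120571536, plus strand): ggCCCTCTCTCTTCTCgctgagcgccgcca
Rps6 (chr4:86857348-86857377, minus strand): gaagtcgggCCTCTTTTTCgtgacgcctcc
Rps15a (chr7:118116128-118116157, minus strand): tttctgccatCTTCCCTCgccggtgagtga
Rpl27 (chr11:101442235-101442264, plus strand): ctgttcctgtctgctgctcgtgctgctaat
Rpl4 (chr9:64173377-64173406, plus strand): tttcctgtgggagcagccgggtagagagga

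The pseudogenes differ little from their parent genes, which matters for counting because a read that fits several places equally well cannot be given to a single gene. Identity over the aligned coding bases lay between 81.25% for Rps4l and 100%, with a median of 98.99%. It was at least 99% in 17 and at least 95% in 33 of the 35 pseudogenes, and 7 matched their parent without a mismatch (Rpl10a-ps1, Rps6-ps4, Rps23-ps1, Rpl36a-ps2, Rps16-ps2, Rpl38-ps2 and Rpl31-ps8). Of the pseudogene rows, 31 were annotated as processed and 4 as transcribed processed pseudogenes (Rps26-ps1, Rps4l, Rpl37rt and Rps15a-ps4). For 5 of the pseudogenes to which the results return, the 90 bases with the most differences from the parent are shown, with the differing bases in capitals. Positions are counted from 1 at the first base of the parent's coding sequence, and the loci are those of the whole gene in GENCODE M21 (GRCm38).
Rps3a1 (chr3:86137940-86142702, minus strand), coding bases 171 to 260: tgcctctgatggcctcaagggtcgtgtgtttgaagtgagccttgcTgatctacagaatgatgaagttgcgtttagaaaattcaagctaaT
Rps3a3 (chr13:108670603-108671397, plus strand): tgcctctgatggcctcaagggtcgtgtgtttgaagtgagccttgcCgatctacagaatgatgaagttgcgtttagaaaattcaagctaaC
Rps15a (chr7:118104372-118116188, minus strand), coding bases 302 to 391: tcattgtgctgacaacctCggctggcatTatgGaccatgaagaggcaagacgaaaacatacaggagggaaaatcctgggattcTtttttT
Rps15a-ps4 (chr4:132219988-132220489, minus strand): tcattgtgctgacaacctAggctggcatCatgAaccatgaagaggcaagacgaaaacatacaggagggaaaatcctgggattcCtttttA
Rps15a, coding bases 75 to 164: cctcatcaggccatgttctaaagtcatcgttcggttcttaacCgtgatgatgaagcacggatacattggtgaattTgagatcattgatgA
Rps15a-ps6 (chr11:6172644-6173036, minus strand): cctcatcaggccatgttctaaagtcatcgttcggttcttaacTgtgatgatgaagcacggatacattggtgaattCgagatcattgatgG
Rpl37 (chr15:5116645-5119140, plus strand), coding bases 160 to 249: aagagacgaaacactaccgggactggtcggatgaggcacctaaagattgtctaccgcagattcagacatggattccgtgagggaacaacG
Rpl37rt (chr5:115102923-115110268, minus strand): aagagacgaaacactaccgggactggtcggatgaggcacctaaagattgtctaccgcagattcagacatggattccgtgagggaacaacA
Rpl14 (chr9:120571444-120574654, plus strand), coding bases 334 to 423: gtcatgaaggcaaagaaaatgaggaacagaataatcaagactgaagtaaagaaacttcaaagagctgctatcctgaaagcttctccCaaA
Rpl14-ps1 (chr7:45324965-45325617, plus strand): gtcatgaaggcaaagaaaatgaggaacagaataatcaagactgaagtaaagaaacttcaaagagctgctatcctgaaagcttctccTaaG
Between Rps3a1 and Rps3a3 there were 9 mismatches in 795 aligned bases, and between Rpl37 and Rpl37rt a single mismatch in 294, the last base of the window.

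The deposited values converted back to whole adjusted counts, which summed to between 22371766 and 126686149 per library, and replicate 1 had the lowest total in both groups. All 20 endothelial marker genes on the list were present, with a summed level of 38904 to 40697 CPM in the controls and 38947 to 40687 CPM in the APP/PS1 libraries. Other cell types were also detected, and the summed levels of mural and choroid plexus genes did not overlap between the groups. All 8 mural cell genes on the list were present, at 575.0 to 959 CPM in the controls and 283 to 547 CPM in the APP/PS1 libraries when summed, and 6 of 8 oligodendrocyte genes were present at 37.3 to 118 and 29.1 to 71.2 CPM, with Mag and Ermn at 0 in at least 1 library. Choroid plexus genes (4 of 5 present) summed to 43.1 to 81.8 and 15.5 to 39.7 CPM, erythroid genes (4 of 5) to 29.95 to 246 and 14.6 to 149 CPM, and astrocyte genes (7 of 7) to 175.0 to 209 and 169 to 204 CPM. Neuronal genes (4 of 10) summed to 96.9 to 120.1 and 95.5 to 118 CPM, and microglial and leukocyte genes (7 of 7) to 51.1 to 60.2 and 46.0 to 54.4 CPM. At an unadjusted p under 0.05 (limma), 7 of 8 mural, 4 of 4 choroid plexus, 4 of 6 oligodendrocyte, 2 of 7 astrocyte and 2 of 4 neuronal genes were lower in APP/PS1, against 5.91% of all rows. No gene of these lists passed the adjusted threshold. The counts stand for a mixture in which fewer cells of a type and less RNA per cell cannot be told apart.

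No ribosomal protein row passed an adjusted p of 0.05 for the difference of genotype in limma, fitted with the replicate number as a second term (Benjamini-Hochberg over 14106 rows). Of the 79 coding rows, 0 passed and 20 were above and 59 below 0, with a median log2 fold change of −0.05. Of the 35 pseudogene rows, 0 passed and 7 were above and 28 below 0, with a median of −0.11. Over all rows, 0% were called and the median was −0.0038. At an unadjusted p under 0.05 there was 1 coding row, Rpl27, and there were 2 pseudogene rows, among them Rps15a-ps6, against 8.03% of all rows. At this p, 2.13% of all rows were higher in APP/PS1, among them Rpl27, and 5.91% were lower, among them Rps15a-ps6. The largest coding differences were −0.39 for Rpsa and 0.18 for Rpl36al, whereas pseudogene rows ranged from −2.97 for Rps15a-ps6 to 0.96 for Rps19-ps6.

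The median over the 5 pairs covered differences of opposite direction in single pairs. In pair 1, 72 of the 79 coding rows were lower in the APP/PS1 library, with a median of −0.30 log2 units. In pair 4, 69 were higher, with a median of 0.21. The coding rows were divided in the other pairs, with 45 higher and 34 lower in pair 2 (median 0.03), 26 higher and 52 lower in pair 3 (−0.05), and 27 higher and 52 lower in pair 5 (−0.04). The pseudogene rows followed in pairs 1 and 4, where 29 of 35 were lower (median −0.55) and 33 were higher (median 0.26). They were also lower in pair 2, in 29 of 35 rows, with a median of −0.16. The SD of the 5 pair medians was 0.18 for coding and 0.30 for pseudogene rows, compared with 0.11 for 177 other coding rows with under 1000 exon bases, 0.10 for 75 mitochondrial ribosomal proteins and 0.09 for 40 translation factors and other genes with a TOP motif. Without replicate 1 the median log2 fold change of coding rows was 0.02, and without replicate 4 it was −0.11, so its direction depended on pair 1. For the pseudogene rows the medians were −0.01 and −0.20. Pair means had been set nearly equal by the batch correction, so a high control and a low APP/PS1 library of a pair are a single observation.

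**Figure D1:**
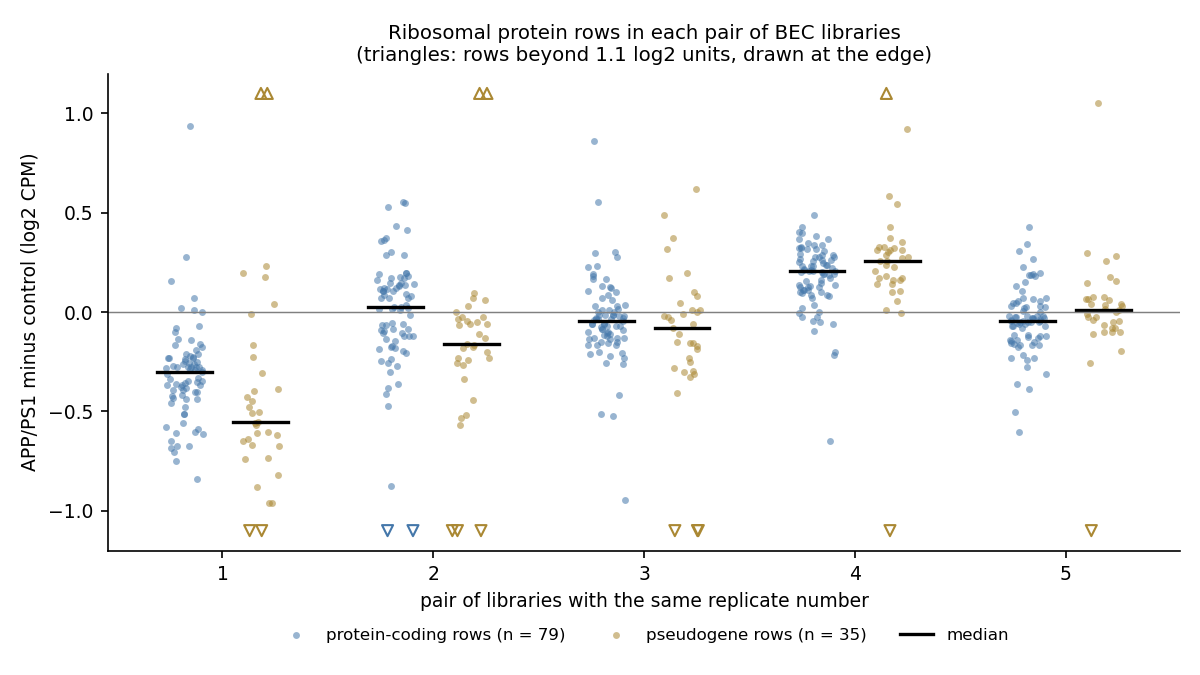
Difference between the APP/PS1 and the control library of each pair (vertical axis, log2 CPM) for 79 coding and 35 pseudogene rows, with a point for each row, triangles at the edge for rows beyond 1.1 log2 units and lines at the medians. Coding rows lie mostly below 0 in pair 1 (median −0.30) and above 0 in pair 4 (median 0.21).

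Coding rows with few exon bases were also mostly lower in pair 1. Among 177 other coding rows with under 1000 exon bases, 137 were lower in pair 1 (median −0.24), while 106 were higher and 71 lower in pair 4 (median 0.04). These rows had a median of 765 exon bases, against 1830 in the coding ribosomal protein rows, so the sets were not matched for length. The 75 mitochondrial ribosomal proteins, which build the separate ribosome of the mitochondrion, had medians of −0.15 in pair 1 and −0.02 in pair 4. Mural cell genes were lower in the APP/PS1 library in both of these pairs, 8 of 8 each time with medians of −1.62 and −1.44, and so were 6 of 6 oligodendrocyte genes with medians of −4.09 and −3.93, 4 of 4 choroid plexus genes with medians of −1.97 and −1.49, and 6 of 7 astrocyte genes with medians of −2.57 and −0.77. Erythroid genes moved in the direction of the ribosomal protein rows in both pairs, with 4 of 4 lower in pair 1 (median −1.58) and 4 of 4 higher in pair 4 (median 0.83). In pairs 2, 3 and 5 their medians were −3.33, −3.98 and 2.35. Neuronal genes had medians of −1.51 in pair 1 and −0.36 in pair 4, and leukocyte and microglial genes of 0.60 and 0.11. Median levels were low, at 2.22 log2 CPM for oligodendrocyte, 1.56 for astrocyte, 0.86 for neuronal and 0.38 for leukocyte and microglial genes. The summed levels of these lists, given above, overlapped between the groups. The total of adjusted counts was lowest in pair 1, and the part of depth and of other cell types in the result was not tested.

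The coding rows together held a small share of each library, which followed the same pairs. They held 0.355% of the adjusted counts in control replicate 1 and 0.267% in APP/PS1 replicate 1, the highest and the lowest of the 10 libraries. With pair means set nearly equal by the batch correction, these 2 extremes are a single observation. In pair 4 the control library held 0.298% and the APP/PS1 library 0.322%. The mean share was 0.323% ± 0.0207 in the controls and 0.298% ± 0.0198 in the APP/PS1 libraries (SD, n = 5 each), and the groups overlapped. The mean difference of the pairs was −0.0248 percentage points, smaller than its SD of 0.0404. It was −0.00916 without replicate 1 and −0.0370 without replicate 4. The pseudogene rows held 0.0679% ± 0.00545 of control and 0.0624% ± 0.00588 of APP/PS1 libraries (SD, n = 5 each).

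**Figure D2:**
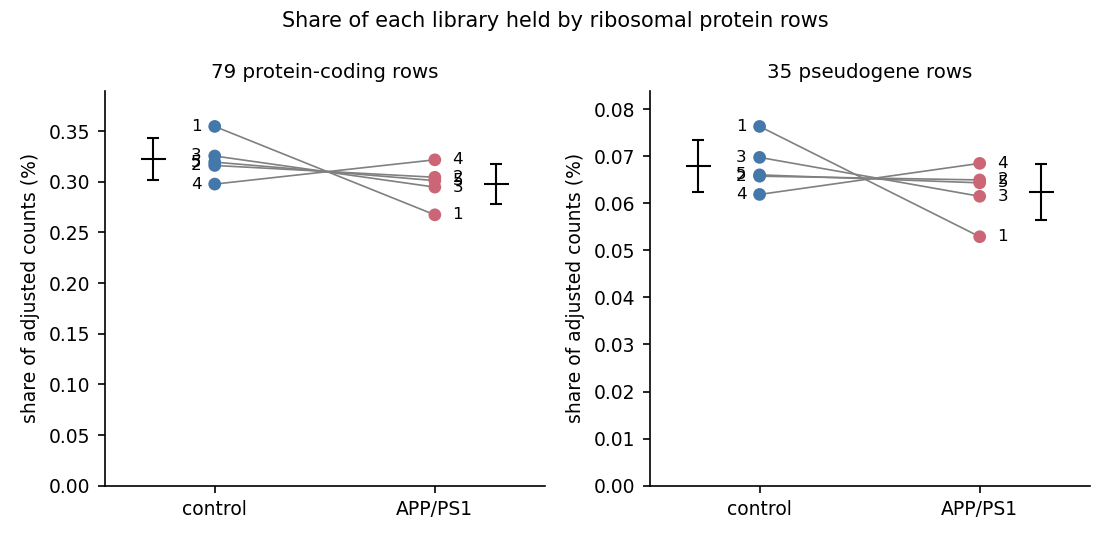
Share of the adjusted counts of each library (vertical axes, percent) in 79 coding rows (left) and 35 pseudogene rows (right), with points for libraries numbered by replicate, lines joining pairs, and bars for the mean ± SD of 5 libraries. In both panels control replicate 1 is the highest and APP/PS1 replicate 1 the lowest library, a single observation because pair means had been set nearly equal.

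The P stalk proteins bind the elongation factors at the entry of the large subunit. Rplp0, the base of the stalk, was 6.63, 6.57, 6.49, 6.24 and 6.42 log2 CPM in control replicates 1 to 5 and 6.19, 6.26, 6.34, 6.57 and 6.42 in APP/PS1 replicates 1 to 5. The groups overlapped. The order of the control libraries was the reverse of that of the APP/PS1 libraries, which follows from pair means set nearly equal by the batch correction. The log2 fold change was −0.11 (adjusted p = 0.866, limma). Rplp1 and Rplp2, which form the dimers on the stalk, had log2 fold changes of −0.10 and 0.04. All 3 were lower in pair 1 and higher in pair 4.

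Of the 30 proteins of the 40S subunit, 29 were lower in pair 1 and 26 higher in pair 4, with pair medians of −0.31 and 0.21. Rps3, which lies at the mRNA entry and also acts in DNA repair, was 8.56, 8.30, 8.34, 8.13 and 8.23 log2 CPM in the controls and 7.91, 8.23, 8.20, 8.40 and 8.30 in the APP/PS1 libraries. The control range of 8.13 to 8.56 contained 4 of the 5 APP/PS1 values, and the log2 fold change was −0.10 (adjusted p = 0.893, limma). Rps6, the substrate of the S6 kinases, was 1.54, 1.28, 1.41, 1.24 and 1.20 in the controls and 1.20, 1.46, 1.34, 1.52 and 1.55 in the APP/PS1 libraries, and its log2 fold change was 0.08. Rps19, mutated in Diamond-Blackfan anaemia, was nearly equal in the groups, with a log2 fold change of 0.01. In both groups its replicate 1 stood apart, at 4.16 log2 CPM in control against 3.76 to 3.85 in the others, and at 3.57 in APP/PS1 against 3.96 to 4.05. As pair means had been set nearly equal, this is a single observation. The remaining 40S rows given by the rule had log2 fold changes of −0.17 for Rps15, −0.06 for Rps4x, −0.02 for the ubiquitin fusion Rps27a, 0.07 for Rps27 and 0.08 for Rps2.

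Rpsa, the laminin receptor precursor of the 40S subunit, had the widest coding difference. It was 1.65, 1.67, 1.52, 1.11 and 1.26 log2 CPM in the controls and 0.81, 0.80, 1.00, 1.39 and 1.28 in the APP/PS1 libraries. Replicates 1 to 3 were lower in APP/PS1, whereas replicates 4 and 5 were higher, and the groups overlapped. The log2 fold change was −0.39 (SE 0.20, adjusted p = 0.729, limma). Only 1.19% of the 50-base windows of its coding sequence were found in no other annotated transcript. Its pseudogenes Rpsa-ps10 and Rpsa-ps11 had log2 fold changes of −0.24 and −0.10.

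Of the 40 proteins of the 60S subunit, 35 were lower in pair 1 and 37 higher in pair 4, with pair medians of −0.30 and 0.18. Rpl27 was the only coding row that was higher in all 5 pairs, as were 2.99% of all rows, and no coding or pseudogene row was lower in all 5, as were 5% of all rows. Rpl27 was 2.38, 2.32, 2.30, 2.33 and 2.23 log2 CPM in the controls and 2.40, 2.44, 2.47, 2.44 and 2.54 in the APP/PS1 libraries. The groups did not overlap, which held for 7.88% of all rows, but the highest control and the lowest APP/PS1 library were 0.02 log2 units apart. The log2 fold change was 0.14 (SE 0.055, adjusted p = 0.600, limma). None of the 50-base windows of the coding sequence of Rpl27 was unshared.

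Rpl5 and Rpl11, which with the 5S RNA hold back Mdm2 when ribosome assembly is disturbed, had log2 fold changes of −0.06 and 0.04. Rpl5 was 3.65 ± 0.07 log2 CPM in the controls and 3.59 ± 0.07 in the APP/PS1 libraries, and Rpl11 was 1.49 ± 0.12 and 1.53 ± 0.11 (SD, n = 5 each). Rpl13a, known for its release from the ribosome in interferon-gamma signalling, had a log2 fold change of −0.08, and Rpl10, which completes the 60S subunit, of −0.0085. The lower 60S rows with the smallest p values were Rpl37a (−0.18, adjusted p = 0.671), Rpl37 (−0.18, adjusted p = 0.734) and Rpl14 (−0.13, adjusted p = 0.789), and Rpl9 (0.10, adjusted p = 0.850) lay above 0, all from limma. Rpl3, Rpl7 and Rpl21 lay at −0.03, −0.02 and −0.03.

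The paralogs replace their family member in some tissues. Rpl22 and Rpl22l1 had log2 fold changes of −0.10 and −0.05, and Rpl7l1 of −0.06. Rpl36a and its paralog Rpl36al differed in sign, at −0.02 and 0.18, but neither passed the test and the difference between them was not tested. Rpl39 and Rpl39l were at −0.0032 and −0.17, and Rps27l was at −0.09. Of the 6 paralogs, 5 were lower in pair 1, and 3 were higher and 3 lower in pair 4.

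The levels of the coding rows differed far more between genes than between groups. Per kb of exon, Rpl8 (7.92 log2 CPM per kb), Rpl4 (7.51) and Rps15 (7.25) were among the highest and Rpsa (−0.42), Rpl37 (0.07), Rpl11 (0.08), Rpl36al (0.17) and Rpl21 (0.35) were lowest. Apart from the stalk proteins and the paralogs, the coding members enter the ribosome in equal number. The rows at both ends, Rpl8 and Rpsa, were nevertheless 8.34 log2 units apart. Without regard to length, 36 of the 79 coding rows lay above the median level of all rows, 4.30 log2 CPM.

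The level of a coding row was related to how much of its sequence it shared with other genes. A window of 50 bases was called unshared when no transcript of another GENCODE M21 gene held it on either strand. In the median coding row 8.65% of the windows of the coding sequence were unshared, and 27 rows had none. In the 60 rows with under 25% unshared windows the median level was 2.18 log2 CPM per kb of exon. It was 4.78 in 6 rows with 25% to under 50%, 5.70 in 7 rows with 50% to under 75%, and 6.56 in 6 rows with at least 75%. Spearman's rho across these 79 genes, which share libraries and are not replicates, was 0.60 with windows of 50 bases and 0.59 with windows of 100 bases in the 78 rows long enough. Exon bases include every annotated isoform, and with coding length in their place rho was 0.66 and the 4 medians were 4.47, 6.46, 7.67 and 8.35 log2 CPM per kb. Rpl8, with 91.3% unshared windows, and Rpl4, with 79.8%, were at the upper end, and Rpl39l, with 100%, was low at 0.48 log2 CPM per kb of exon.

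**Figure D3:**
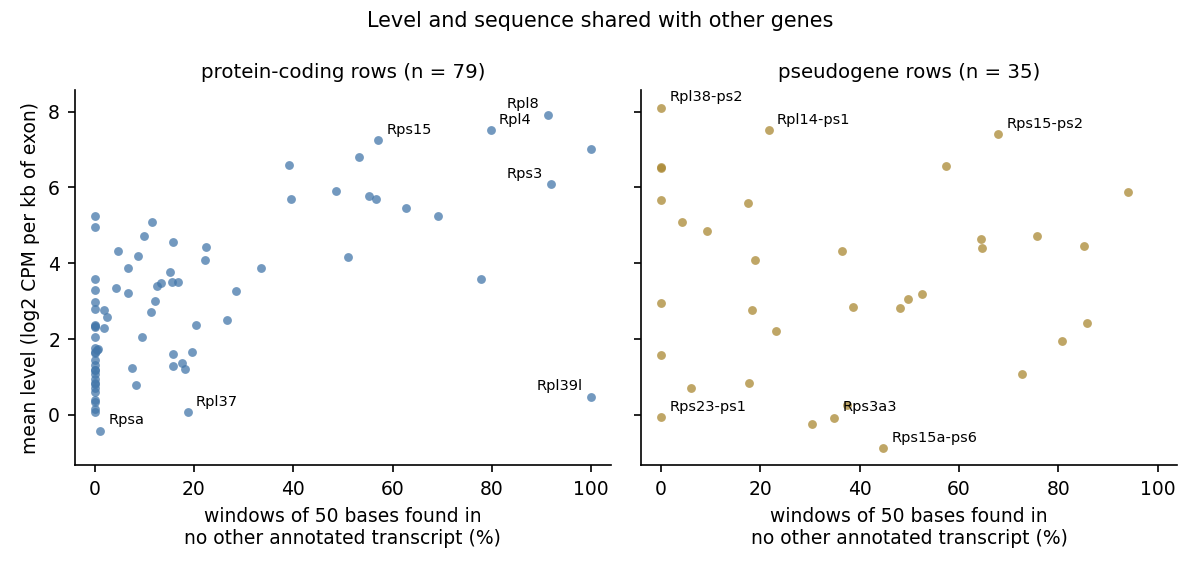
Mean level over 10 libraries (vertical axis, log2 CPM per kb of exon) against the share of 50-base windows found in no other annotated transcript (horizontal axis, percent), for coding rows (left, windows of the coding sequence) and pseudogene rows (right, windows of the transcript). The 60 coding rows under 25% have a median of 2.18 and the 6 rows at 75% or more a median of 6.56, and pseudogene rows show no such order.

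The difference between the groups also varied with shared sequence. Among the 13 coding rows with at least 50% unshared windows, a limit set after the values were seen, all 13 had log2 fold changes below 0, with a median of −0.09. Among the other 66 rows, 46 were below 0 and the median was −0.03. Spearman's rho between the share of unshared windows and the log2 fold change was −0.47 over the 79 rows. The 13 rows were lower in APP/PS1 in pair 1 (13 of 13) and pair 3 (12 of 13) and mostly higher in pair 4 (10 of 13). None of them passed the test, and their smallest adjusted p was 0.772 (limma).

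Several pseudogene rows had higher levels than the genes they were copied from. A parent with a row was available for 34 of the 35, all but Rps23-ps1. Per kb of exon, 22 of the 34 pseudogene rows were above and 12 below their parent, but the count depended on the length used, since the exon bases of a parent include all of its isoforms. Against the parent per kb of coding sequence, 11 were above and 23 below. The 11 rows that were higher on either scale were Rpl37rt, Rpl36a-ps2, Rpl19-ps11, Rps16-ps2, Rpl14-ps1, Rpl10a-ps1, Rpl38-ps2, Rps6-ps4, Rps26-ps1, Rpsa-ps11 and Rpl3-ps1. Rpl37rt was at 6.58 log2 CPM per kb, compared with 0.07 for Rpl37 per kb of exon and 2.59 per kb of coding sequence. The windows shown above differ by a single base, but the alignment covered 294 bases of an Rpl37rt transcript of 682. Of the 50-base windows of this transcript, 57.5% were unshared, and of those of Rpsa-ps11 80.8%. The share was 21.7% in Rpl14-ps1, 17.5% in Rps26-ps1, 9.23% in Rpl19-ps11 and 4.31% in Rpl3-ps1. No window was unshared in Rpl36a-ps2, Rps16-ps2, Rpl10a-ps1, Rpl38-ps2 and Rps6-ps4, so no window of this length tells these rows apart from other genes. Rpl14-ps1 was at 7.51 and Rpl14 at 4.09 and 5.43, and Rpl38-ps2, identical to its parent over the aligned bases, was at 8.11 and Rpl38 at 4.95 and 6.30. The level of pseudogene rows did not order with unshared windows, with a Spearman's rho of −0.05 over 35 rows, of which 7 had none.

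**Figure D4:**
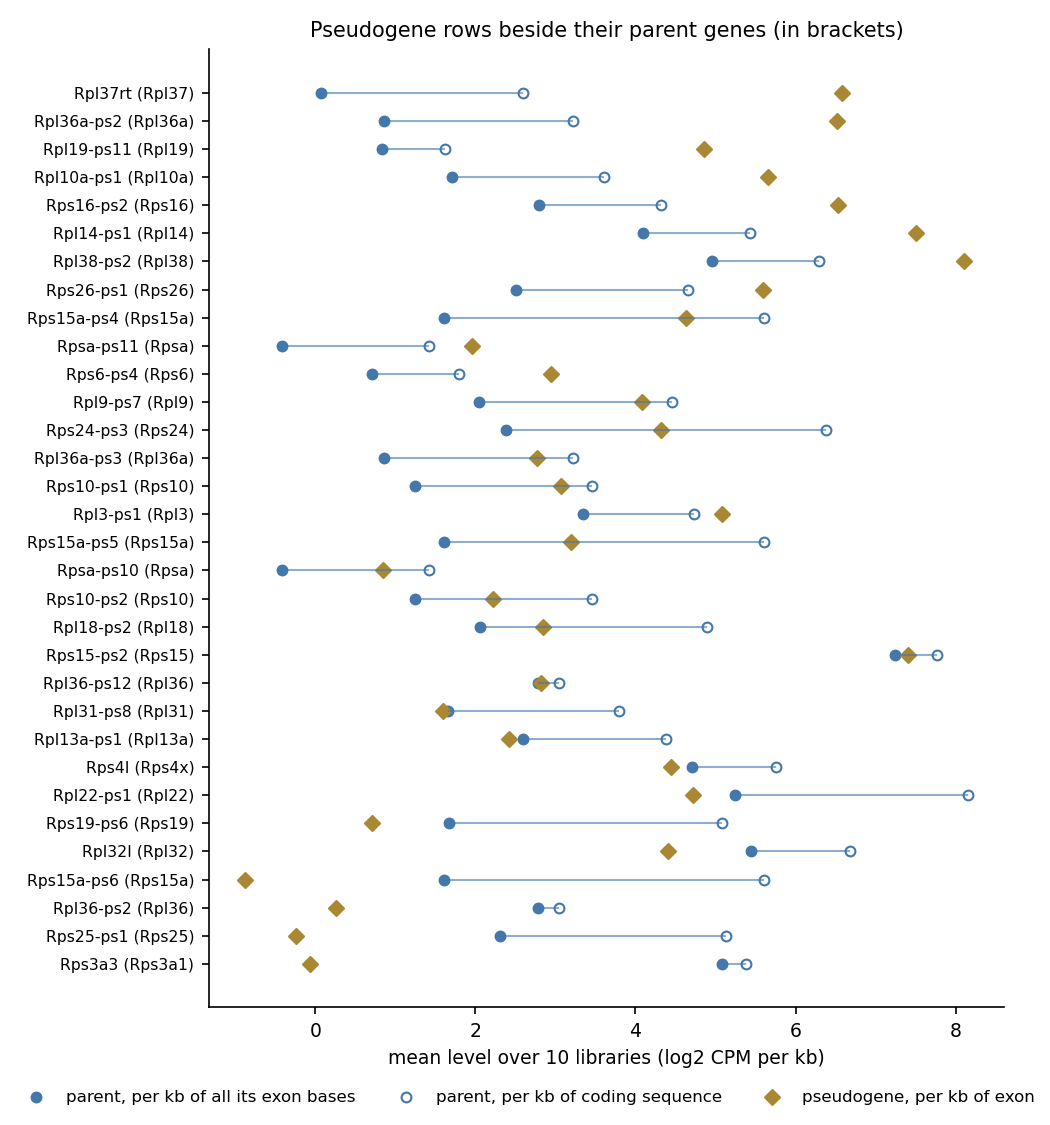
Mean level over 10 libraries (horizontal axis, log2 CPM per kb) of 32 pseudogene rows (diamonds) and of their parents per kb of exon (filled circles) and per kb of coding sequence (open circles). In 11 rows, among them Rpl37rt at 6.58 and Rpl38-ps2 at 8.11, the diamond lies to the right of both circles. Rpl38-ps2 has no unshared window.

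Differences between libraries were widest among the pseudogenes. The SD of the 5 pair differences was over 1 log2 unit in 5 of 35 pseudogene rows, in 0 of 79 coding rows and in 3.49% of all rows. The median SD was 0.33 in pseudogene and 0.25 in coding rows, compared with 0.17 in all rows. The 5 rows were Rps3a3, Rps19-ps6, Rps15a-ps6, Rpl36-ps2 and Rps25-ps1, and each had at most 1 adjusted count in at least 1 library.

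Rps3a3, a copy of Rps3a1 in an intron of Pde4d on the same strand, alternated between absence and clear presence in both groups. It had 0, 1, 1534, 100 and 309 adjusted counts in control replicates 1 to 5 and 1, 1478, 1, 736 and 224 in APP/PS1 replicates 1 to 5. The differences of the pairs were 1.20, 8.38, −8.80, 2.83 and −0.26 log2 units, and the log2 fold change of 0.67 (SE 2.31, adjusted p = 0.962, limma) was smaller than their spread. Rps3a1, named after its values were seen, was low where Rps3a3 was high. It was 41.1, 53.8, 23.7, 44.0 and 35.02 CPM in the controls and 28.2, 19.5, 41.1, 26.2 and 32.8 in the APP/PS1 libraries. The libraries with the most Rps3a3, control replicate 3 (22.3 CPM), APP/PS1 replicate 2 (14.6 CPM) and APP/PS1 replicate 4 (6.43 CPM), had the 3 lowest values of Rps3a1. Summed, the 2 rows were 41.1, 53.8, 46.0, 44.9 and 37.6 CPM in the controls and 28.3, 34.1, 41.1, 32.6 and 34.8 CPM in the APP/PS1 libraries, and the SD of the pair differences on the log2(CPM + 1) scale fell from 0.81 for Rps3a1 to 0.23 for the sum. The sum was lower in the APP/PS1 library of each pair, by 0.11 to 0.64, and the groups overlapped. On the deposited log2 CPM, 5% of all rows were lower in each pair, but the scales differ. The sum was taken relative to library totals alone, which moved the median of all rows from −0.0038 to −0.04. This sum was formed after the values were seen and was not tested. Rps3a1 itself had a log2 fold change of −0.37 (adjusted p = 0.845, limma).

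The copies of Rps15a did not move together. Rps15a-ps6, in an intron of Nudcd3 on the same strand, had 1, 120, 38, 136 and 162 adjusted counts in the controls and 1, 8, 8, 1 and 1 in the APP/PS1 libraries. It was therefore near 0 in both libraries of pair 1 and lower in APP/PS1 in the other 4 pairs. The log2 fold change was −2.97 (SE 0.78, adjusted p = 0.537, limma). Rps15a-ps4, a transcribed pseudogene, was 3.86, 2.85, 3.65, 3.23 and 3.16 log2 CPM in the controls and 3.18, 4.40, 3.63, 4.15 and 4.21 in the APP/PS1 libraries. It was higher in APP/PS1 in pairs 2, 4 and 5, by 1.55, 0.92 and 1.05 log2 units, and the log2 fold change was 0.56 (adjusted p = 0.780, limma). Rps15a-ps5 and the parent Rps15a had log2 fold changes of −0.14 and −0.0031. When Rps15a and its pseudogene rows were summed, the SD of the pair differences on the log2(CPM + 1) scale was 0.40, against 0.17 for Rps15a alone. Summing therefore narrowed the spread for Rps3a1 and widened it for Rps15a, and this sum was not tested. Of the windows of Rps15a-ps4, 64.5% were unshared, and of those of Rps15a-ps6 44.8%.

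Rps19-ps6, in an intron of Tecpr2 on the same strand, had 0, 136, 76, 91 and 111 adjusted counts in the controls and 28, 79, 56, 119 and 107 in the APP/PS1 libraries. Only control replicate 1 stood apart, and that pair set the log2 fold change of 0.96 (adjusted p = 0.849, limma), which was −0.10 without it. Rpl36-ps2, in an intron of Abr on the opposite strand, had 18, 87, 42, 52 and 59 adjusted counts in the controls and 1, 32, 1, 65 and 62 in the APP/PS1 libraries. It was lower in pairs 1 to 3 and slightly higher in pairs 4 and 5, and the log2 fold change was −1.52 (adjusted p = 0.698, limma). Its parent Rpl36 was at −0.15. Rps25-ps1 was at 0 in APP/PS1 replicate 2 alone and had a log2 fold change of −0.86 (adjusted p = 0.835, limma), which was −0.08 without that replicate.

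Rps27rt and Rps23-ps1 followed the replicate number and not the genotype. Rps27rt, a coding retrogene of Rps27 named after its values were seen, was −2.27, −1.94, −4.85, 1.71 and 2.23 log2 CPM in the controls and −1.34, −3.17, −4.85, 2.20 and 1.92 in the APP/PS1 libraries. Rps23-ps1 was −2.0, −3.33, −4.85, 2.04 and 2.0 in the controls and −2.55, −3.77, −4.85, 2.10 and 2.30 in the APP/PS1 libraries. Both rows were at 0 adjusted counts (−4.85 log2 CPM) in both libraries of replicate 3 and near 2 log2 CPM in all 4 libraries of replicates 4 and 5, which the labels place in the same batch. Rows at 0 were most frequent in replicate 3, with 185 of all rows in the control and 179 in the APP/PS1 library. Pair means differed by 6.92 log2 units in Rps27rt and by 7.0 in Rps23-ps1, compared with 0.0088 in the median row. They were over 1 log2 unit apart in 3.32% of all rows, among them 7 members. In 3 of the 14106 rows, pair means of replicates 4 and 5 were over 3 log2 units above those of replicates 1 to 3. These were the 2 members and Apoc1, and 2 rows were as far below. These counts were made after the values were seen. No window of the transcript of Rps23-ps1 or of the coding sequence of Rps27rt was unshared. Rps23-ps1 overlaps an exon of Gm5148 on the opposite strand, which was at 2.25 log2 CPM. The log2 fold changes were −0.02 and −0.13.

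**Figure D5:**
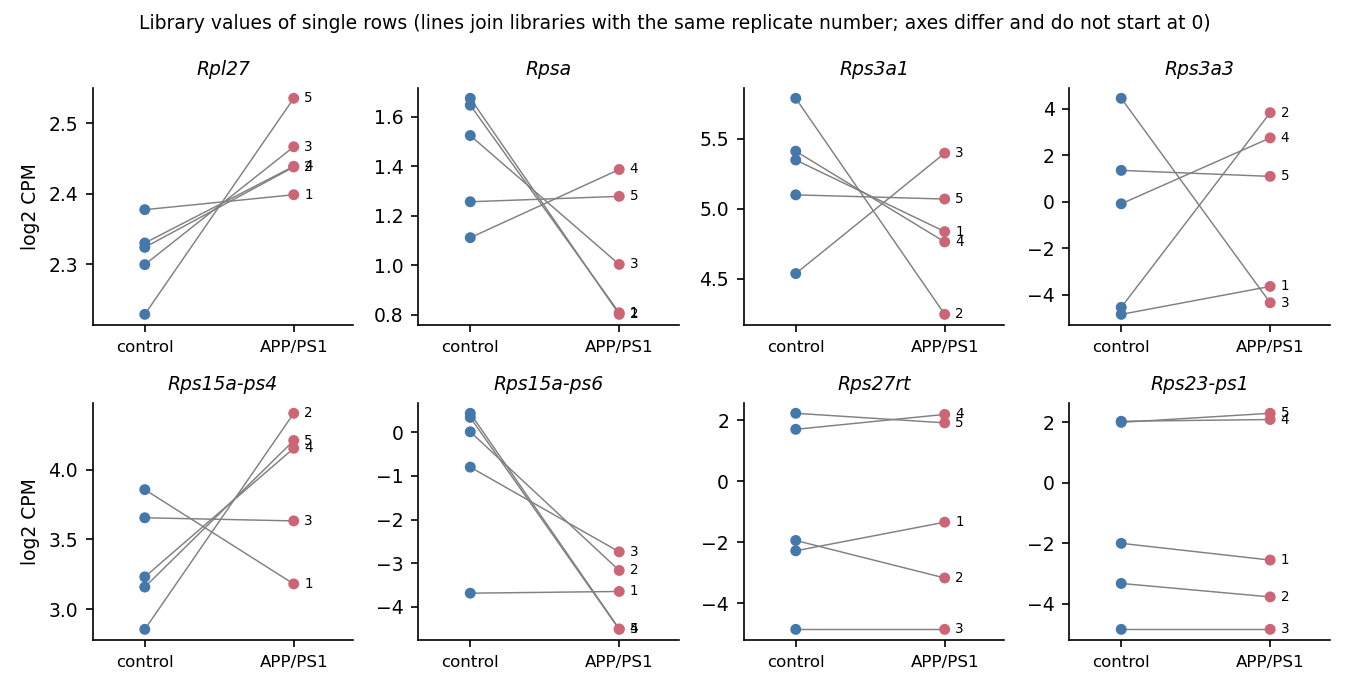
Values of 8 rows in each library (vertical axes, log2 CPM, with a different range in each panel), with lines joining the control and APP/PS1 libraries of the same replicate number. Rpl27 is higher in APP/PS1 in all 5 pairs, Rps3a1 and Rps3a3 cross in opposite directions in pairs 2 and 3, and Rps27rt and Rps23-ps1 separate replicates 4 and 5 from replicates 1 to 3.

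The remaining pseudogene rows differed little between the groups. Of the 60S copies, log2 fold changes were −0.24 for Rpl22-ps1 (adjusted p = 0.632, limma), −0.18 for Rpl36-ps12 and −0.14 for Rpl37rt. They were −0.13 for Rpl13a-ps1, Rpl36a-ps2 and Rpl10a-ps1, −0.09 for Rpl18-ps2, −0.08 for Rpl9-ps7 and Rpl38-ps2, −0.07 for Rpl19-ps11, −0.05 for Rpl14-ps1 and Rpl3-ps1, −0.03 for Rpl32l, −0.01 for Rpl31-ps8 and 0.04 for Rpl36a-ps3. Rpl22-ps1 was 3.64, 3.43, 3.50, 3.34 and 3.40 log2 CPM in the controls and 3.02, 3.26, 3.19, 3.35 and 3.30 in the APP/PS1 libraries, and the groups overlapped only at replicate 4. Of the 40S copies, log2 fold changes were −0.20 for Rps24-ps3, −0.16 for Rps16-ps2, −0.15 for Rps10-ps1, −0.14 for Rps26-ps1, −0.11 for Rps15-ps2 and −0.09 for Rps6-ps4. Rps10-ps2 and Rps4l were above 0, at 0.17 (adjusted p = 0.687) and 0.22 (adjusted p = 0.770, both limma). Rps10-ps2 was 1.13, 1.23, 1.02, 1.06 and 1.19 in the controls and 1.31, 1.17, 1.39, 1.37 and 1.23 in the APP/PS1 libraries, higher in 4 of 5 pairs. Rps4l was 4.37, 4.39, 4.05, 4.09 and 4.36 in the controls and 4.36, 4.34, 4.66, 4.64 and 4.37 in the APP/PS1 libraries, with the groups overlapping. Their parents Rps10 and Rps4x were at 0.08 and −0.06.

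Outside the symbol rule there are further proteins of the ribosome. Rack1, a scaffold on the 40S head, had a log2 fold change of −0.13, and the ubiquitin-like fusion Fau was at 0.01. Both were lower in pair 1. Of 40 genes for ribosome assembly, 0 passed the adjusted threshold, 24 were above and 16 below 0, and the median was 0.0091. In pair 1, 23 of these were higher and 17 lower, and in pair 4, 29 higher and 11 lower. Of 40 translation factors and other genes with a TOP motif, 0 passed and 24 were above 0, with a median of 0.0047, and 31 were lower in pair 1 (median −0.07) and 38 higher in pair 4 (median 0.16). The 31 genes with a row of the 32 listed for mTORC1 and the control of TOP messages had 0 calls, with 16 above and 15 below 0, a median of 0.0026 and pair medians from −0.04 to 0.01. Rps19bp1 had a log2 fold change of 0.04.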

How the data were processed

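RNA of BECs from 5 control and 5 APP/PS1 libraries was measured. Per the study's methods, the authors used STAR (mm10) for alignment, HTSeq-count for counts per gene, a filter on low counts and ComBat for batch, and they deposited log2 CPM of 14106 genes. Versions, strand and the handling of reads that align to several places are not given in the sources used here. HTSeq-count by default leaves such reads out. Each deposited log2 value converted back to a whole adjusted count (tolerance 0.01, prior count 3), so the values stand for corrected counts and not reads, and no counting error was computed. The study's methods name ComBat after the step to log CPM, an order that would not by itself return whole counts. The order used for the deposited values was not settled here. The 10 single-library files equalled their table columns.

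Log2 values were fitted in R 4.3.3 with limma 3.58.1 (lmFit, eBayes) with genotype and replicate number in the model, and Benjamini-Hochberg adjustment covered all rows (threshold 0.05). The fit was also run on simulated data whose rows were drawn independently. Such data hold no shifts shared by many rows of a pair, so the run cannot speak for them. The labels give replicates 1 to 3 a batch each and replicates 4 and 5 a common one, whereas the study's supplement gives 5 batches. Deviations of same-numbered libraries from their group means had correlations across 12190 rows of −0.94 to −0.32, as the batch means had been set equal, so the pairing was taken from the labels and the supplement. Sequence windows of 50 and 100 bases came from GENCODE M21 transcripts.

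The members and gene lists were chosen with earlier results of these data known. Named rows were the 5 highest and lowest levels per kb, the 5 higher and 5 lower rows with the smallest p, fixed proteins and paralog pairs, all pseudogenes, and the parents of those given in full, of which 6 rows are not reported here. The sequences printed were chosen after the values were seen. Alternatives were no replicate block, 4 batches, limma-voom, other scalings, prior count 0.125, filters on low values, eBayes with a trend and each replicate left out.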

Additional observations from a re-analysis of the deposited data

Results flagged for a closer look

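In groups of 5 libraries, the highest or lowest value of a named row was set against the range of its group (Dixon's critical value 0.71). Of 154 groups searched, 15 stood out, in 10 rows, where chance gives about 1 in 20 groups, or 8. Of these, 10 were libraries of replicate 1, 4 of replicate 4 and 1 of replicate 2, and the cause was not tested. Because pair means had been set nearly equal, both libraries of a pair could be singled out by the same difference.
In APP/PS1 replicate 1, Rps2 was 5.29 log2 CPM (nearest other library 5.48), Rpl9-ps7 was 2.83 (nearest 3.28) and Rpl32l was 2.71 (nearest 3.09). In control and APP/PS1 replicate 1, Rps19 was 4.16 and 3.57, Rps15a-ps5 was 2.27 and 1.31, and Rpl13a-ps1 was 2.13 and 1.17. In control and APP/PS1 replicate 4, Rps4x was 5.28 and 5.54, and Rpl10a-ps1 was 4.88 and 5.20. Rps19-ps6 was at −4.85, the lowest value in the table, in control replicate 1 (nearest −0.22), and Rps25-ps1 was at −4.85 in APP/PS1 replicate 2 (nearest −1.71).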

How the results depend on the processing

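No coding row was called under any alternative tried, and no pseudogene row except 1 of 35 without the replicate block, where 4.59% of all rows were called. At an unadjusted p under 0.05, the 1 of 79 coding rows (8.03% of all rows) became 5 without the block (21.6% of all rows), 2 with 4 batches (11.4%), with library totals alone (8.05%) and with totals without ribosomal protein rows (8.08%), and 0 with limma-voom (7.27%) and with a trend in eBayes (8.23%). Under the same alternatives the 2 of 35 pseudogene rows became 7 without the block, 4 with 4 batches, 5 with either set of totals and 1 with a mean of at least 1 log2 CPM (7.24% of all rows). With a replicate left out, the counts of coding rows ranged from 0 (without replicate 5, 6.66% of all rows) to 8 (without replicate 4, 6.11%). Those of pseudogene rows ranged from 1 (without replicate 3, 5.32% of all rows) to 7 (without replicate 4, 6.11%). The share of all rows ranged from 5.3% without replicate 1 to 14.2% without replicate 2. Without the block 648 of all 14106 rows were called, and with it 0. Among the members the block changed no other call. Library totals alone moved the median of all rows to −0.04. The medians of coding rows lay between −0.09 and −0.0041 and those of pseudogene rows between −0.15 and −0.03 under the alternatives that kept all replicates. Log2 fold changes near 0 changed sign in some rows, none of them called, and the cause was not tested. With limma-voom Rpl10 (0.030), Rpl3 (0.014), Rpl7 (0.0034), Rpl22l1 (0.041), Rpl36a (0.055), Rpl39 (0.062), Rpl9-ps7 (0.044), Rps23-ps1 (0.15), Rpl18-ps2 (0.011), Rpl32l (0.083), Rpl13a-ps1 (0.012), Rps15a (0.043) and Rps27rt (0.033) did so, with library totals alone Rplp2 (−8.2e-05), Rps19 (−0.025), Fau (−0.025) and Rpl36a-ps3 (−0.00043), with totals without ribosomal protein rows Rplp2 (−0.00052), Rps19 (−0.025), Fau (−0.025) and Rpl36a-ps3 (−0.00087), and with median-of-ratios size factors Rpl39 (0.0014) and Rps15a (0.0016). With a replicate left out, the ranges crossed 0 in 31 rows, Rpl11 −0.041 to 0.11, Rpl21 −0.088 to 0.0011, Rplp2 −0.0020 to 0.11, Rps3 −0.20 to 0.037, Rps19 −0.056 to 0.16, Rpl10 −0.053 to 0.048, Rpl3 −0.085 to 0.031, Rpl7 −0.093 to 0.036, Rpl22l1 −0.13 to 0.10, Rpl36a −0.094 to 0.085, Rpl39 −0.076 to 0.10, Rps27 −0.0064 to 0.15, Rps27l −0.16 to 0.060, Rps19bp1 −0.017 to 0.088, Fau −0.034 to 0.063, Rps19-ps6 −0.10 to 1.33, Rpl9-ps7 −0.18 to 0.11, Rps6-ps4 −0.19 to 0.025, Rps15a-ps5 −0.22 to 0.066, Rpl18-ps2 −0.20 to 0.017, Rpl36a-ps3 −0.034 to 0.12, Rpl38-ps2 −0.14 to 0.040, Rpl14-ps1 −0.13 to 0.059, Rpl19-ps11 −0.16 to 0.026, Rpl32l −0.10 to 0.13, Rps3a3 −1.25 to 3.04, Rpl31-ps8 −0.075 to 0.13, Rpl13a-ps1 −0.22 to 0.072, Rpl3-ps1 −0.15 to 0.032, Rps15a −0.057 to 0.066 and Rps27rt −0.26 to 0.28.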
